A study of Arabidopsis thaliana with 12 samples.

Results

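Among 22746 probe sets measured in rosette leaves of formaldehyde-assimilating Arabidopsis thaliana, 118 (0.519%) had their highest level in plants exposed to a low concentration of formaldehyde. A probe set belonged to these low-peaking probe sets when its mean log2 value in the low plants was at least 0.8 above the mean of each of the other groups and its lowest low plant was above every other plant. ORA47, an AP2/ERF factor of jasmonate signalling, also met the rule and was left out by it. Of the 118, 51 were paired with 1 gene each and 67 were not listed in the annotation table used here. A gene is called measured below when the annotation pairs it alone with a probe set. Genes not measured in this sense may still be among the other probe sets, the 67 unlisted ones included. Of the 51 genes, 9 had a symbol and 42 are known here by locus only. The members were thus chosen by the levels of the low plants against all others, so every difference between low plants and another group is given as a description and was not tested.

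Each of the 4 groups held 3 plants, with 1 ATH1 array per plant, and all plants were Columbia AB plants that carried rmpA and rmpB of Mycobacterium gastri, whose products fix formaldehyde in the chloroplast. Plants without the transgenes were not analysed here. The outside plants stayed out of the exposure chamber (under 0.08 ppm formaldehyde), the air plants were in the 10 L chamber at under 0.04 ppm, the low plants at 1 to 2 ppm and the high plants at 14 to 16 ppm. All were 7 weeks old, were acclimated for 72 h and were treated for 150 min at 24 °C in the light. For the plants in the chamber, no chamber run is given apart from the condition, so chamber run and condition cannot be told apart. The p-values measure the spread between plants only.

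Formaldehyde is a reactive aldehyde that cross-links proteins and nucleic acids, and plants oxidise it through a glutathione adduct to formate. Several of the low-peaking genes belong to systems known in leaves for quick changes in transcript level. The SnRK1 kinase senses low energy, and genes repressed by sugar rise when carbon runs short. Plant U-box and ATL-type RING proteins are E3 ubiquitin ligases of stress and immune signalling, and CC-type glutaredoxins are small redox proteins that bind TGA transcription factors. The gene roles given here are background knowledge, since the files name genes only by symbol or locus.

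Values are log2 levels normalised by GCRMA, which estimates background with the help of the probes' base composition. Levels of different probe sets are not compared, and every difference is a difference of log2 levels. Array medians ran from 5.68 to 5.82, arrays of a group correlated at 0.982 or higher, and 26.7% to 28.0% of each array sat at the lowest value, a floor of 2.11. The leaf label was checked with mesophyll markers, of which 4 of 4 were measured and high. RCA, rubisco activase, averaged 15.04 in outside, 14.95 in air, 14.83 in low and 14.81 in high plants. PRK, another of them, averaged 13.69, 13.75, 13.77 and 12.79 in the same group order and was lower in high than in air plants (difference -0.96, adjusted p = 1.29e-05, limma). The root marker PYK10 was at the floor in every plant but air plant 3, where it measured 6.17. The part of root tissue in that plant was not tested. In whole leaves, fewer cells of a type and less RNA per cell cannot be told apart. The signal at the 3' end minus that at the 5' end, a sign of RNA quality, was 0.096 ± 0.044 in outside, 0.029 ± 0.103 in air, -0.073 ± 0.073 in low and 0.232 ± 0.049 in high plants for the GAPDH r2 control set (log2, SD, n = 3 each). Other control sets ordered the groups differently: the older GAPDH set read 1.86 in outside, 1.82 in air, 1.97 in low and 1.54 in high plants, and the ubiquitin r2 set -0.40, -0.37, -0.30 and -0.48. The part of RNA quality in the results was not tested.

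The median of the low-peaking probe sets' group means was 6.92 in outside, 6.73 in air, 8.60 in low and 6.67 in high plants. The gap between the low mean and the next highest group mean had a median of 1.16 and ran from 0.80 to 3.45, with 74 probe sets at 1 or more, 24 at 1.5 or more and 10 at 2 or more. The next highest group was outside in 59 cases, air in 33 and high in 26. The lowest group was high in 49 cases, air in 42 and outside in 27. Just inside the threshold lay AT2G21080, with a gap of 0.80, and just outside it AT3G06770, with 0.79. Without low plant 1, 179 probe sets met the rule. A further 59 probe sets met the gap but overlapped with another group's plants. The same rule applied to the other groups returned 285 probe sets that peaked in outside, 78 in air and 1974 in high plants.

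**Figure D1:**
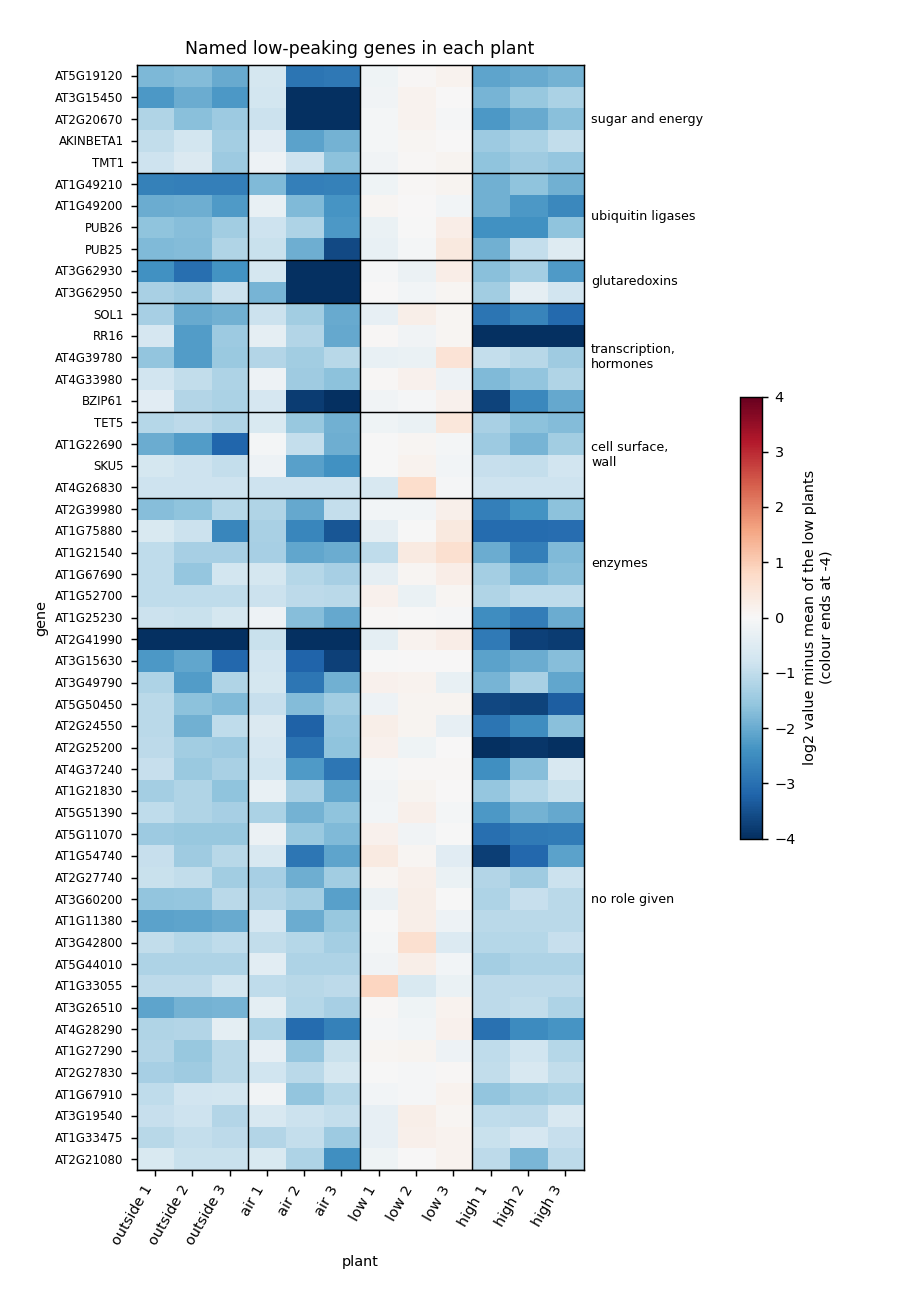
Log2 level of the 51 named low-peaking genes (rows, by role) in each of the 12 plants (columns), drawn as the difference from the mean of the low plants, with the colour scale ending at -4 and 4. The 3 low plants are near 0 by construction. In 47 of the 51 genes air plant 1 is the highest (palest) of the air plants or tied for highest. AT4G26830, at the floor in all air plants, is such a tie.

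Air plant 1 stood closer to the low plants than any other plant did. It was the highest air plant, or tied for highest, in 103 of the 118 probe sets (87.3%). Over the array it was the highest in 36.4% of the 14733 probe sets without ties among air plants. The 118 were counted with ties, so the 2 shares are not counted alike. Its level exceeded the mean of air plants 2 and 3 by a median of 1.11 (range -0.59 to 5.07), against 0.0 over all probe sets. In 72 of the 118 it was the highest plant of all those not exposed to low formaldehyde. The low mean was above air plant 1 by a median of 0.78, and above the mean of air plants 2 and 3 by a median of 1.87. With air plant 1 as the only air plant, 63 probe sets met the rule, 58 of them among the 118. Without air plant 1, 158 probe sets met it, all 118 among them. What sets air plant 1 apart was not tested.

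**Figure D2:**
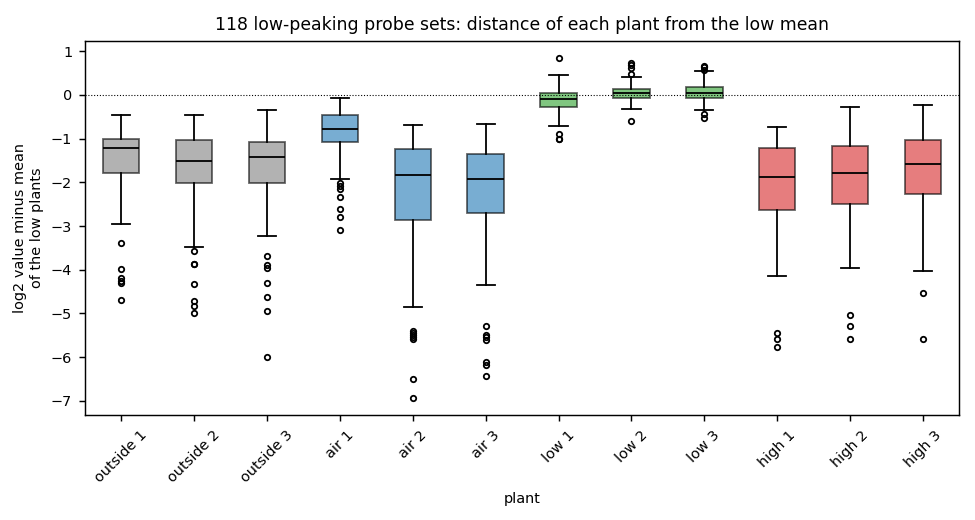
Distance of each plant from the mean of the low plants over the 118 low-peaking probe sets (y axis, log2 difference; box, quartiles; line, median; whiskers, up to 1.5 times the box; circles, probe sets beyond them). Air plant 1 has a median of -0.78, while air plants 2 and 3 lie at -1.83 and -1.92, outside plants between -1.50 and -1.22 and high plants between -1.88 and -1.58.

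Within groups, the median SD of the low-peaking probe sets was 0.25 in outside, 0.75 in air, 0.19 in low and 0.27 in high plants. The median range among the 3 air plants was 1.46, against 0.47 among outside, 0.36 among low and 0.52 among high plants. The rule favours a small spread among low plants, so the low value is set in part by the choice of members.

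Sugar and energy supply was represented by 5 genes. AT3G15450, a homolog of aluminium-induced proteins whose transcript is repressed by sugar, measured 11.25, 11.55 and 11.27 in outside plants, 12.81, 9.28 and 9.22 in air, 13.41, 13.68 and 13.57 in low and 11.68, 12.04 and 12.30 in high plants. AT2G20670, a DUF506 protein gene known from carbon starvation, measured 11.43, 10.98 and 11.19 in outside, 11.80, 7.21 and 8.32 in air, 12.56, 12.80 and 12.60 in low and 10.35, 10.65 and 10.99 in high plants. AT5G19120, of the aspartyl protease family, averaged 11.80 in outside, 11.48 in air, 13.65 in low and 11.64 in high plants. In all 3 genes the low plants lay above every other plant, and air plants 2 and 3 were the lowest of all.

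AKINBETA1, a regulatory beta subunit of SnRK1, measured 9.68, 9.92 and 9.32 in outside, 10.20, 8.54 and 8.77 in air, 10.59, 10.74 and 10.67 in low and 9.22, 9.40 and 9.70 in high plants. TMT1, which carries glucose and fructose into the vacuole, measured 9.61, 9.86 and 8.99 in outside, 10.25, 9.63 and 8.80 in air, 10.30, 10.49 and 10.56 in low and 8.83, 9.04 and 8.91 in high plants. For TMT1 the lowest low plant was only 0.054 above air plant 1. None of the 5 genes passed the test in high against air, high against outside or air against outside plants (limma), and none did so at an unadjusted p under 0.05. The difference between high and air plants was 1.57 (SE 0.81, adjusted p = 0.192, limma) for AT3G15450 and -0.64 (SE 0.34, adjusted p = 0.207, limma) for TMT1. For the other 4 genes this rested on air plant 1. Without it, the high plants were above the air plants by 2.76 for AT3G15450 (adjusted p = 1.56e-05, limma), 2.90 for AT2G20670 (adjusted p = 2.40e-04, limma), 0.89 for AT5G19120 (adjusted p = 6.60e-04, limma) and 0.79 for AKINBETA1 (adjusted p = 0.0134, limma). All 4 were then also lower in air than in outside plants, AT3G15450 with a difference of -2.11 (adjusted p = 8.48e-04, limma) and AT2G20670 with -3.44 (adjusted p = 0.00124, limma). TMT1 was lower in high than in air plants without air plant 3 (difference -1.02, adjusted p = 0.0208, limma).

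E3 ubiquitin ligases made up 4 of the named genes. PUB25 and PUB26 are closely related U-box ligases known to target the immune kinase BIK1. PUB26 measured 6.32, 6.24 and 6.53 in outside, 7.09, 6.70 and 5.64 in air, 7.67, 7.92 and 8.21 in low and 5.51, 5.50 and 6.33 in high plants. PUB25 measured 4.92, 4.94 and 5.46 in outside, 5.80, 4.72 and 3.07 in air, 6.36, 6.61 and 7.05 in low and 4.76, 5.72 and 6.14 in high plants. Neither differed between high and air plants by the test (PUB26 -0.69, SE 0.37, adjusted p = 0.206, and PUB25 1.01, SE 0.63, adjusted p = 0.297, limma), but PUB26 was lower in high plants without air plant 3 (difference -1.11, adjusted p = 0.0184, limma).

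AT1G49200 and AT1G49210 encode ATL-type RING finger proteins and lie close together in the genome, with 1 protein-coding gene between them in the reference annotation. AT1G49210 was at or near the floor in all unexposed plants but air plant 1, at 2.16, 2.12 and 2.11 in outside and 3.10, 2.11 and 2.16 in air plants, and reached 4.69, 4.90 and 4.98 in low and 2.92, 3.25 and 2.92 in high plants. It rose in high against outside plants by 0.90 (SE 0.24, adjusted p = 0.0148, limma), with the outside plants at or near the floor. That call was lost without high plant 2 (adjusted p = 0.0578, limma). Against air plants it passed when air plant 1 was left out (difference 0.89, adjusted p = 4.88e-04, limma). AT1G49200 measured 6.48, 6.53 and 6.22 in outside, 8.17, 6.71 and 6.10 in air, 8.54, 8.50 and 8.38 in low and 6.55, 6.16 and 5.91 in high plants, and passed no test with all plants (without air plant 3, high minus air -1.24, adjusted p = 0.0412, limma).

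The CC-type glutaredoxins AT3G62930 and AT3G62950 lie with 1 protein-coding gene between them, and both varied widely among air plants. AT3G62930 measured 6.26, 5.67 and 6.30 in outside, 8.00, 4.41 and 4.34 in air, 8.64, 8.46 and 8.97 in low and 7.00, 7.34 and 6.41 in high plants. AT3G62950 measured 7.29, 7.19 and 7.75 in outside, 6.76, 2.11 and 2.42 in air, 8.61, 8.50 and 8.69 in low and 7.21, 8.24 and 7.85 in high plants. AT3G62950 was higher in high than in air plants by 4.01 (SE 1.04, adjusted p = 0.0150, limma), with air plant 1 near the high plants and the other air plants at or near the floor, so that the size of the difference rests in part on the floor. Leaving out a single plant took that call away in 3 fits, with adjusted p up to 0.0557 without air plant 3. Against outside plants, the high plants differed by 0.36. AT3G62930 passed no test with all plants, and without air plant 1 it was higher in high than in air plants by 2.54 (adjusted p = 3.64e-04, limma) and than in outside plants by 0.84 (adjusted p = 0.0408, limma), and lower in air than in outside plants (difference -1.70, adjusted p = 0.0139, limma). Probes of such related genes can bind each other's transcripts, so their separation is uncertain.

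**Figure D3:**
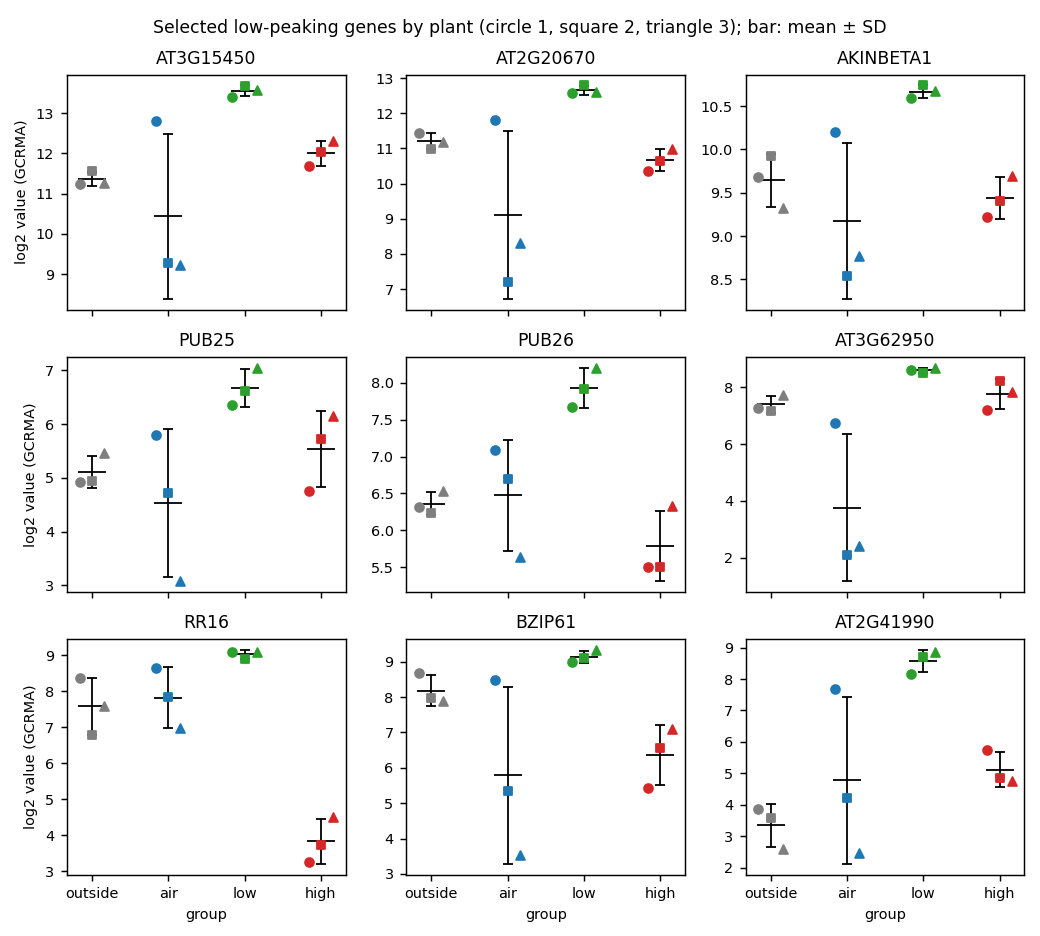
Log2 level (GCRMA) of selected low-peaking genes in every plant of the outside, air, low and high groups (circle, plant 1, square, plant 2, triangle, plant 3; bars, mean ± SD). In each panel the low plants lie above all others, and air plant 1 lies above air plants 2 and 3.

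Transcription and hormone signalling were represented by 5 genes. RR16, a type-A response regulator that dampens cytokinin signalling, measured 8.36, 6.79 and 7.59 in outside, 8.65, 7.84 and 6.96 in air, 9.09, 8.89 and 9.10 in low and 3.25, 3.73 and 4.49 in high plants. It fell in high plants by 3.99 against air (SE 0.51, adjusted p = 3.09e-04, limma) and by 3.75 against outside plants (SE 0.51, adjusted p = 3.79e-04, limma), with no overlap between plants. SOL1, a tesmin/TSO1-like CXC protein linked to stomatal lineage divisions, measured 4.25, 3.55 and 3.65 in outside, 4.71, 4.19 and 3.55 in air, 5.26, 5.83 and 5.64 in low and 2.64, 2.93 and 2.47 in high plants. SOL1 fell in high plants by 1.47 against air (SE 0.31, adjusted p = 0.00489, limma) and by 1.14 against outside plants (SE 0.31, adjusted p = 0.0164, limma). The second call was lost in 2 fits that left out 1 plant, with adjusted p up to 0.0609 without outside plant 1 (limma).

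BZIP61, a bZIP transcription factor, measured 8.69, 7.96 and 7.89 in outside, 8.49, 5.34 and 3.54 in air, 9.00, 9.10 and 9.33 in low and 5.44, 6.57 and 7.10 in high plants. AT4G39780, an AP2/ERF factor, averaged 5.31 in outside, 5.85 in air, 7.09 in low and 5.92 in high plants. AT4G33980, a gene under cold and clock control, averaged 7.51 in outside, 7.43 in air, 8.52 in low and 7.01 in high plants, with its lowest low plant 0.012 above air plant 1. These 3 genes passed no test with all plants. Without air plant 1, BZIP61 was higher in high than in air plants by 1.93 (adjusted p = 0.0423, limma), lower in high than in outside plants (difference -1.81, adjusted p = 0.0319, limma) and lower in air than in outside plants (difference -3.74, adjusted p = 0.0102, limma).

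Cell surface and wall proteins were encoded by 4 genes. SKU5, a multicopper-oxidase-like protein needed for directional growth, measured 11.19, 11.06 and 10.94 in outside, 11.68, 9.74 and 9.47 in air, 11.89, 12.03 and 11.78 in low and 10.99, 10.94 and 11.15 in high plants. TET5, a tetraspanin membrane protein, measured 5.21, 5.28 and 5.14 in outside, 5.74, 4.84 and 4.42 in air, 6.16, 6.06 and 6.80 in low and 5.05, 4.70 and 4.59 in high plants. AT4G26830, a family 17 glycosyl hydrolase, was at the floor in all outside, air and high plants and measured 2.28, 3.62 and 2.89 in low plants. None of these 3 passed a test with all plants, and without air plant 1 SKU5 was higher in high than in air plants by 1.42 (adjusted p = 4.76e-05, limma) and lower in air than in outside plants (difference -1.46, adjusted p = 6.37e-04, limma). High and outside plants differed by -0.04 for SKU5.

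AT1G22690, a gibberellin-regulated GASA-type peptide gene, measured 9.59, 9.33 and 8.40 in outside, 11.49, 10.61 and 9.62 in air, 11.57, 11.64 and 11.50 in low and 10.11, 9.70 and 10.18 in high plants. It passed no test with all plants, and without air plant 3 it was higher in air than in outside plants by 1.94 (adjusted p = 0.0362, limma). It is also 1 of the 4 guard cell markers, of which 2 were measured. The other, FMA, averaged 6.25 in outside, 5.02 in air, 5.45 in low and 4.18 in high plants. AT1G22690 is high in low plants by the choice of members, so FMA is the guard cell marker that is independent of the rule, and its mean was highest in outside plants. The part of guard cells in these levels was not tested.

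Enzymes were encoded by 6 genes. AT2G39980, a BAHD-type acyltransferase, measured 6.76, 6.85 and 7.33 in outside, 7.26, 6.43 and 7.51 in air, 8.37, 8.36 and 8.66 in low and 5.73, 6.08 and 6.82 in high plants. AT1G75880, a GDSL lipase, averaged 4.35 in outside, 3.28 in air, 5.72 in low and 2.65 in high plants. AT1G25230, a purple acid phosphatase, measured 10.51, 10.47 and 10.66 in outside, 11.16, 9.67 and 9.34 in air, 11.42, 11.35 and 11.34 in low and 8.89, 8.61 and 9.39 in high plants. It fell in high plants by 1.58 against outside plants (SE 0.41, adjusted p = 0.0137, limma), and the call was lost without high plant 2 (adjusted p = 0.0538, limma). AT1G21540, an AMP-dependent synthetase, AT1G67690, a zincin-like metallopeptidase, and AT1G52700, an alpha/beta hydrolase, were dim, with low means of 5.34, 5.24 and 3.35. No enzyme gene but AT1G25230 passed a test with all plants. In fits that left out 1 plant, AT1G75880 was lower in high than in outside plants without air plant 1 (difference -1.70, adjusted p = 0.0302, limma), air plant 3 (adjusted p = 0.0431, limma) or outside plant 3 (difference -2.33, adjusted p = 0.0103, limma). AT1G21540 was lower in high than in outside plants without low plant 1 (difference -0.94, adjusted p = 0.0331, limma), and AT1G25230 was lower in high than in air plants without air plant 3 (difference -1.45, adjusted p = 0.0251, limma) and lower in air than in outside plants without air plant 1 (difference -1.04, adjusted p = 0.0197, limma). AT2G39980 was lower in high than in air plants without air plant 2 (difference -1.17, adjusted p = 0.0233, limma) or high plant 3 (difference -1.16, adjusted p = 0.0246, limma).

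The other 25 genes are given no role here. AT2G41990 had the largest gap of all 118, 3.45, and measured 3.87, 3.58 and 2.58 in outside, 7.68, 4.21 and 2.45 in air, 8.17, 8.70 and 8.85 in low and 5.76, 4.84 and 4.76 in high plants. AT3G15630 measured 9.23, 9.48 and 8.42 in outside, 10.79, 8.35 and 7.82 in air, 11.52, 11.57 and 11.55 in low and 9.41, 9.55 and 9.83 in high plants. In both genes air plant 1 was the highest plant below the low group. The gap to the next group was 1.56 for AT3G49790, 1.34 for AT2G24550, 1.23 for AT4G37240 and 1.20 for AT1G21830. AT2G27740, AT3G60200, AT3G42800, AT5G44010, AT1G33055, AT1G27290, AT1G67910, AT3G19540 and AT1G33475 had gaps between 0.82 and 1.10. AT3G42800, AT1G33055, AT1G52700, AT4G26830 and 1 unlisted probe set were within 0.5 of the floor in every group but low, so their gaps were measured against the floor.

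High plants were set against air plants to ask where the low-peaking probe sets stood at the stronger exposure. The rule keeps the high, air and outside means below the low mean and does not use the differences among them directly. It does bar every probe set that peaks in high, air or outside plants. The members' shares are thus shaped in part by the rule, and the array's shares stand beside them as a description only. In high against air, the test called 34.6% of the whole array, 14.7% higher and 19.9% lower. Of the 118, 17 (14.4%) were called, 3 higher (2.54%) and 14 lower (11.9%). These shares were below those of the whole array, but for the share called higher that depended on air plant 1. Without it, 30.5% of the 118 and 34.5% of the array were called in high against air. Of the 118, 23 (19.5%) were then higher, against 14.6% of the array, and 13 (11%) lower, against 19.9%. Without air plant 2, air plant 3 or high plant 2, 1 of the 118 (0.847%) was called higher in high against air. The array's shares called higher were then 13%, 13.1% and 12.9%. Leaving out air plant 1 let 10 named genes newly pass in high against air, 6 in high against outside and 10 in air against outside. Over the array, the calls changed from 7867 to 7850, from 8526 to 8676 and from 1274 to 2137 in the same order. The array's newly called probe sets are not given here, so these gene counts are not read as results about the members. With all plants, the median difference of high from air plants was -0.017 (range -3.99 to 4.01). In high against outside, the test called 37.5% of the whole array, 16.4% higher and 21.1% lower. Of the 118, 28 (23.7%) were called there, 9 higher (7.63%) and 19 lower (16.1%). Without high plant 2, 4 were higher (3.39%), against 14.4% of the array. Without outside plant 2, 5 were higher (4.24%), against 14.9%. With all plants, the median difference was -0.18. The 2 comparisons share the high plants. The members' shares were below those of the array there, and without air plant 1 they were 33.1% of the 118 and 38.1% of the array, with 22.9% of the 118 lower in high plants, against 21.7% of the array.

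AT5G50450 fell in high plants by 2.19 against air (SE 0.24, adjusted p = 1.26e-04, limma) and by 2.05 against outside plants (SE 0.24, adjusted p = 1.54e-04, limma). It measured 7.27, 6.71 and 6.59 in outside, 7.42, 6.62 and 6.95 in air, 8.14, 8.47 and 8.45 in low and 4.71, 4.65 and 5.05 in high plants. AT2G25200 fell by 2.29 against air (SE 0.46, adjusted p = 0.00410, limma) and by 2.73 against outside plants (SE 0.46, adjusted p = 0.00133, limma). It measured 9.52, 9.17 and 9.12 in outside, 9.90, 7.62 and 8.97 in air, 10.72, 10.39 and 10.58 in low and 6.42, 6.66 and 6.55 in high plants, so that the high plants were the lowest. AT5G11070 fell by 1.71 against air (SE 0.33, adjusted p = 0.00307, limma) and by 1.38 against outside plants (SE 0.33, adjusted p = 0.00875, limma). Together with RR16 and SOL1 these are the 5 named genes lower in high plants in both comparisons, out of 12 probe sets (10.2% of the 118, against 15.7% of the array).

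AT5G51390, AT4G28290, AT1G54740 and AT1G25230 fell in high plants against outside plants and did not pass against air plants, and the difference between both comparisons was not tested. AT5G51390 fell by 0.89 (SE 0.18, adjusted p = 0.00391, limma). AT4G28290 fell by 1.69 (SE 0.45, adjusted p = 0.0148, limma) and AT1G54740 fell by 1.87 (SE 0.58, adjusted p = 0.0312, limma). The call of AT4G28290 was lost without outside plant 3 (adjusted p = 0.0559, limma) and that of AT1G54740 without high plant 1 (adjusted p = 0.111, limma), among other fits. AT3G26510 rose in high against outside plants by 0.86 (SE 0.21, adjusted p = 0.0115, limma), AT1G11380 by 1.01 (SE 0.28, adjusted p = 0.0176, limma) and AT2G27830 by 0.42 (SE 0.13, adjusted p = 0.0283, limma). The last 2 calls were lost in some fits that left out 1 plant, with adjusted p up to 0.0510 without outside plant 1 for AT1G11380 and up to 0.0968 without outside plant 2 for AT2G27830 (limma).

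**Figure D4:**
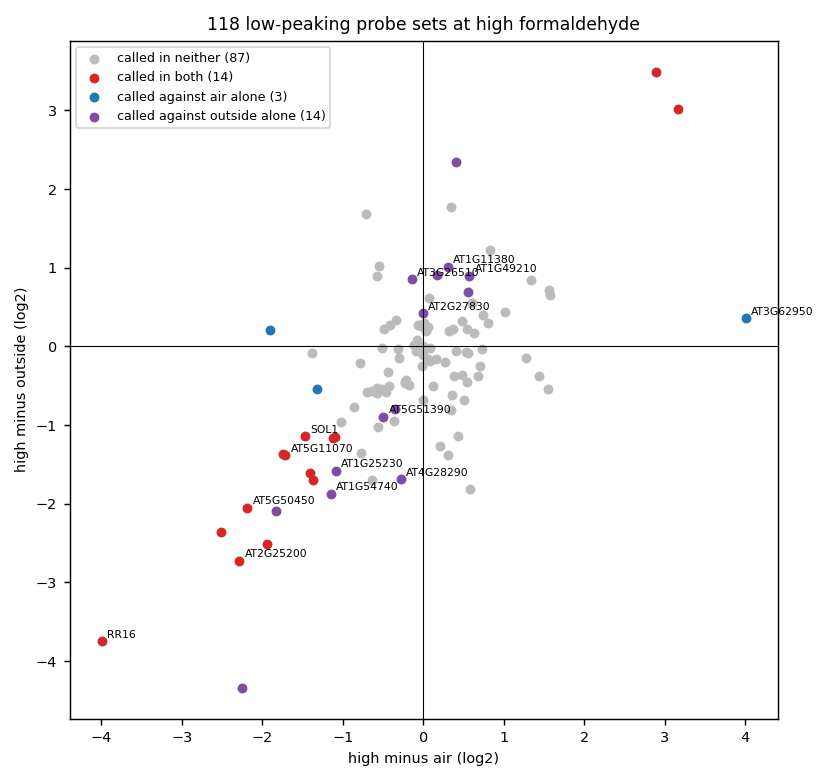
Log2 difference of high from air plants (x axis) and of high from outside plants (y axis) for each of the 118 low-peaking probe sets. RR16 lies at -3.99 and -3.75, AT3G62950 at 4.01 and 0.36, and the medians are -0.017 and -0.18. Both axes share the high plants.

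A total of 87 of the 118 (73.7%), 37 of them named genes, were called in neither comparison with high plants, against 56.7% of the array. The rule shapes this share too, since it bars probe sets that peak in high plants. The high mean lay within 0.5 of both the air and the outside mean in 38 probe sets. By direction, it was above both in 26, below both in 49, between them in 42 and equal to 1 of them in 1. The range among air plants was wide for many of them, so a missed threshold does not show that levels were alike.

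Air was set against outside plants to compare plants kept in and out of the chamber without added formaldehyde. Over the whole array 5.6% were called, 3.1% higher and 2.5% lower. Of the 118, 3 (2.54%) were called, all higher in air and without overlap between plants. None of the 118 was called lower by limma, while at an unadjusted p under 0.05, 13 were higher and 5 lower. The array's share at the unadjusted threshold was not counted, so the 13 and 5 are not read as a result about the members. AT3G26510 rose in air by 1.00 (SE 0.21, adjusted p = 0.0326, limma), with 12.18, 11.44 and 11.25 in air and 10.46, 10.69 and 10.71 in outside plants. This call was lost in 8 of the fits that left out 1 plant, with adjusted p up to 0.0938 (limma). The other two were unlisted probe sets, with differences of 2.11 and 1.95. Without air plant 1, 23 of the 118 (19.5%) were called lower in air than in outside plants, against 4.26% of the array. Without air plant 3, 6 (5.08%) were called higher, against 1.9%.

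The 67 unlisted probe sets had gaps between 0.80 and 2.97, with a median of 1.24, and a median low level of 9.04. The 2 probe sets called higher in high plants in both comparisons were among them and were picked out after their values were seen. The first measured 6.72, 6.08 and 6.28 in outside, 8.76, 5.41 and 4.47 in air, 10.66, 11.13 and 10.94 in low and 9.30, 9.53 and 9.29 in high plants. It was higher in high plants by 3.16 against air (SE 0.89, adjusted p = 0.0225, limma) and by 3.02 against outside plants (SE 0.89, adjusted p = 0.0256, limma). The other measured 3.56, 3.11 and 3.52 in outside, 4.72, 3.47 and 3.80 in air, 7.55, 7.91 and 8.00 in low and 6.67, 6.99 and 7.01 in high plants. It was higher in high plants by 2.89 against air (SE 0.30, adjusted p = 8.8e-05, limma) and by 3.49 against outside plants (SE 0.30, adjusted p = 2.3e-05, limma). In both probe sets the low and high plants lay above all outside and air plants.

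The relatives of the low-peaking genes, drawn up after the members were seen, did not all share their pattern. Of the U-box ligases PUB20 to PUB29, 7 of 10 were measured, and 5 rose in high against air plants (median difference 2.51, against 0.0 over the array, of which 14.7% rose). PUB22 averaged 2.89 in outside, 3.70 in air, 6.58 in low and 8.02 in high plants, with a difference of 4.33 between high and air plants (adjusted p = 1.23e-05, limma). PUB23 averaged 3.47, 4.83, 5.77 and 8.67, and PUB24 5.84, 6.30, 6.72 and 8.81, in the same group order. PUB22, PUB23 and PUB24 thus had their highest mean in high plants, while PUB25 and PUB26 had theirs in low plants.

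Of 19 CC-type glutaredoxins 15 were measured, and 7 rose in high against air plants, among them AT3G62950, whose call was lost in 3 fits that left out 1 plant (median difference 1.33, with 14.7% of the array higher). GRX480, known to link salicylic acid and jasmonate signalling, averaged 2.78 in outside, 2.98 in air, 2.81 in low and 9.86 in high plants. AT4G15700 averaged 5.39 in outside, 5.14 in air, 8.07 in low and 8.71 in high plants. Of the 15, AT3G62930 and AT3G62950 were the low-peaking ones.

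**Figure D5:**
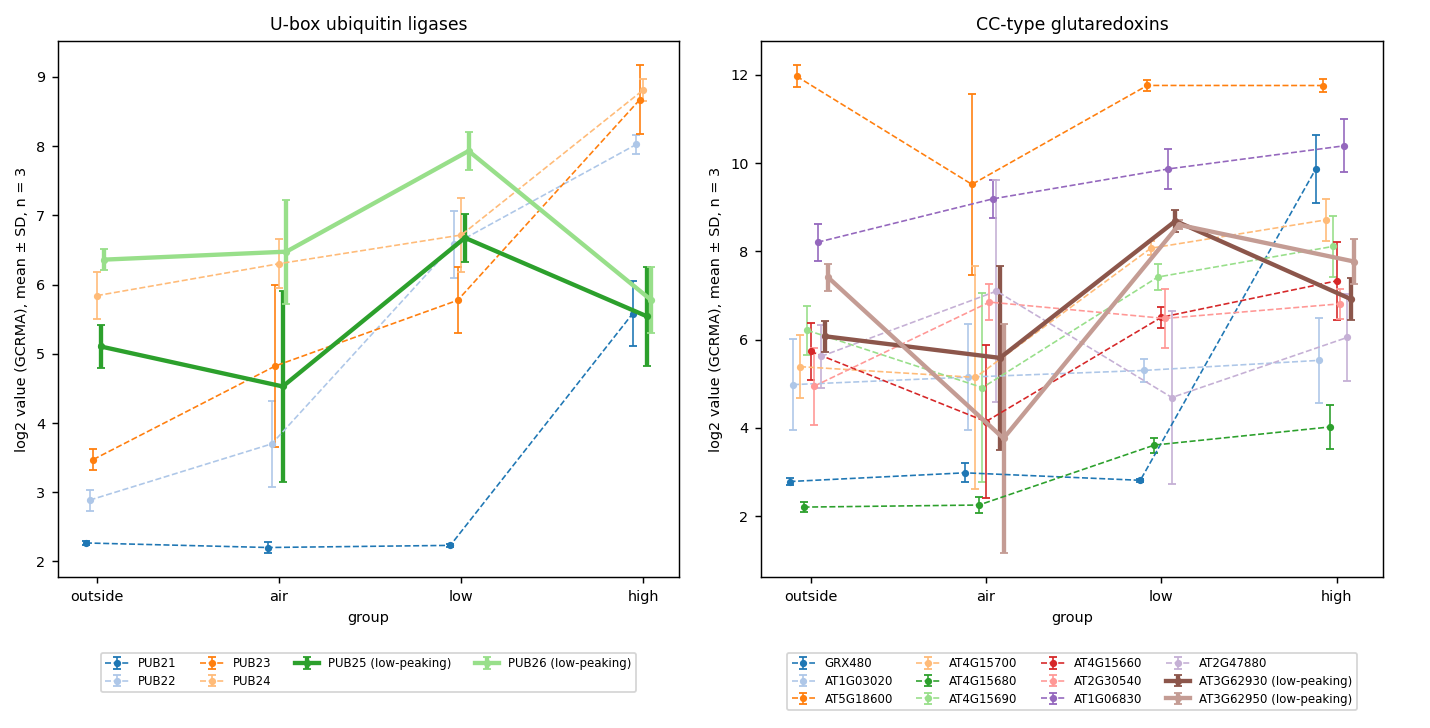
Log2 group mean with SD (n = 3 plants) for measured U-box ligases and CC-type glutaredoxins with a mean above 4 in at least 1 group. Thick lines mark the low-peaking genes PUB25, PUB26, AT3G62930 and AT3G62950, and PUB21 to PUB24 and GRX480 reach their highest mean in high plants.

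Of 19 sugar starvation genes 7 were measured, and 3 of these were low-peaking. MCCA, a subunit of leucine breakdown, averaged 8.90 in outside, 8.57 in air, 9.66 in low and 8.93 in high plants, short of the threshold by its gap of 0.73. ATL8 averaged 6.82 in outside, 6.46 in air, 7.75 in low and 7.53 in high plants. IVD, also of leucine breakdown, averaged 7.19 in outside, air and low plants alike and 8.07 in high plants, and rose by 0.89 in high against air (adjusted p = 0.0232, limma) and against outside plants (adjusted p = 0.0215, limma). ETFQO averaged 7.47 in outside, 7.44 in air, 7.73 in low and 7.73 in high plants. AKINBETA1 was the only low-peaking gene of the 3 SnRK1 subunits measured. TMT2, the close relative of TMT1, averaged 8.19 in outside, 7.40 in air, 7.06 in low and 5.89 in high plants and fell in high against air plants by 1.51 (adjusted p = 0.00112, limma).

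Of 153 genes in 10 lists of stress and hormone response, 36 were measured. None of these 36 was low-peaking apart from ORA47, which the rule leaves out, and for the genes not measured this is not known. ORA47 measured 4.95, 4.84 and 5.14 in outside, 4.24, 4.24 and 5.89 in air, 10.33, 11.15 and 11.27 in low and 4.62, 3.82 and 4.48 in high plants. Of the other measured genes, only WRKY53 and GH3.3 had their highest mean in low plants, by 0.68 and 0.23, while 24 had it in high plants. In high against air plants, 6 of 6 heat shock genes (median difference 8.95), 5 of 8 calmodulin-like genes (2.71), 4 of 5 stress ubiquitin ligases (3.38) and 3 of 4 WRKY factors (3.06) rose, with 1 WRKY factor lower, against 14.7% of the array higher and 19.9% lower. The 4 stress ubiquitin ligases, PUB21 to PUB24, are also among the U-box ligases that rose above. HSP17.6C and HSP22.0 were at the floor in all air plants, so the heat shock median rests in part on the floor. PUB21, whose difference is the ligase median of 3.38, averaged 2.20 in air plants, near the floor. CML37 (2.12) and CML40 (2.35) were near it there too. Of the other lists, jasmonate had 1 gene higher and 2 lower of 4, C2H2 zinc finger repressors 1 higher and 1 lower of 3, and AP2/ERF factors, defence signalling and touch 1 of 1 higher each. The early auxin genes had 0 calls of 3 by limma, and 0 at an unadjusted p under 0.05.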

How the data were processed

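Total RNA of rosette leaves was measured with 1 array per plant, 12 in all, and groups were taken from the labels. The deposited log2 values were made by the authors with GCRMA, per the submitters' processing notes. Version and settings of GCRMA: not given in the sources used here. Nothing was renormalised. Of 22810 probe sets, 64 array controls were left out and 22746 were tested with no filter. The annotation paired 13513 of these with 1 gene and 503 with several, while 8730 were not listed, and the TAIR10.1 gene table was used for names and neighbours only.

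Comparisons of group means used limma 3.58.1 in R 4.3.3, by 1 fit to all 12 arrays (8 residual degrees of freedom) with a mean trend in the variance prior, two-sided p-values and the Benjamini-Hochberg method across all 22746 features. The call threshold was an adjusted p under 0.05. The comparisons were high against air, high against outside and air against outside. The steps were tested on simulated data. Python 3.11.15, pandas 2.3.3 and matplotlib 3.10.9 were used for tables and figures.

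All members paired with 1 gene were named. The members and lists were chosen with earlier results of these data known, and families and roles were chosen after the members were seen. Precision is limited by having 3 plants in each group. Promoter motifs and sequences were not analysed here.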

Additional observations from a re-analysis of the deposited data

How the results depend on the processing

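The number of low-peaking probe sets was 74 with a gap of at least 1 and 63 with air plant 1 as the only air plant, which is then assumed to vary like the other groups, against 118. With 1 plant left out in turn it ran from 105 (without air plant 3) to 179 (without low plant 1). Members called lower in high than in air plants numbered 14, but 22 with the filter on dim probe sets, 8 with only the 6 arrays compared and 53 with air plant 1 alone. Those called higher numbered 3, but 1 with 6 arrays, 6 with array weights and 1 with air plant 1 alone, and 1 to 23 with a plant left out, 23 being without air plant 1 and 1 without air plant 2, air plant 3 or high plant 2. With air plant 1 alone, 31 members were lower in high than in outside plants, against 19. Members higher in high than in outside plants numbered 4 to 12 with a plant left out, against 9, with 4 without high plant 2 and 5 without outside plant 2. In air against outside, 1274 probe sets were called, but 1914 with the filter, 58 with 6 arrays, 845 with the replicate block, 586 with air plant 1 alone and 603 to 2137 with a plant left out. Members higher in air numbered 3, but 6 with the filter, 0 with 6 arrays, 25 with air plant 1 alone and 2 to 6 with a plant left out. Members lower in air numbered 0, but 1 with arrays centred on their medians, 2 with the filter, 2 with array weights and 0 to 23 with a plant left out. The causes were not tested. Member counts in this paragraph are given without the array's share at each setting. They may move with the whole array and are not read as results about the members. No called difference of a named gene changed sign under these alternatives, nor under quantile normalization, robust variances or variances without a trend. Deviations of same-numbered plants of different groups from their group means correlated weakly (-0.27 to 0.23), and the main fit used no pairing. Such correlations, from so few plants per group, cannot exclude that the numbers stand for a shared run or harvest. With the replicate block, AT2G27830 (high against outside) and AT3G26510 (air against outside) lost their calls and AT2G39980 gained 2.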
